A study of Mus musculus with 22 samples.

Results

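The mutations described here are single-base differences between the sequenced V segment of immunoglobulin heavy chains and its germline V segment, sorted by the germline base that was changed and by the kind of change. They come from 16 bulk heavy-chain libraries of mouse splenic germinal center B cells that bind ovalbumin (OVA). Every aligned position with a base in both sequences was compared, and each distinct mutation was counted once per rearrangement, a rearrangement being the sequences of 1 library that agree in V gene, J gene and CDR3, the junction of V, D and J. This gave 10624 mutations in 5822 rearrangements, over 1674418 germline bases at risk. Counting every sequence of the 16 libraries separately gave 12264 mismatches in 8520 sequences.

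The donors were male C57BL/6 mice, 8 weeks old per the sample tags, immunized intraperitoneally with OVA in alum with lipopolysaccharide, a bacterial adjuvant. The libraries fell into 4 groups of 4: letter n at day 7, letter p at day 7, letter n at day 13 and letter p at day 13 after immunization. What n and p mean is not stated in the labels, and the letters serve as names only. Within a group the libraries are numbered 1 to 4, and nothing in the labels ties a number to an animal, so the p-values measure the spread between libraries, which may be technical. No gene expression was measured in these libraries, so the labelled cell type was not checked against marker genes.

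In germinal centers, somatic hypermutation begins when activation-induced deaminase (AID) turns cytosine into uracil in single-stranded V region DNA. A G mutation on the coding strand is then a deaminated C on the template strand. Copying the uracil gives a transition (C to T, or G to A), removal of the uracil by uracil-DNA glycosylase allows transversions at C and G, and mismatch repair with the error-prone polymerase eta places mutations at A and T nearby. AID is known to prefer C after A or T and then A or G, and polymerase eta to prefer A after A or T. Mutation accumulates in the complementarity-determining regions (CDR1, CDR2), the loops that contact antigen, more than in the framework that carries them.

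The germline positions mutated in the largest share of rearrangements show these contexts letter by letter. They were ranked over 2201 mutated positions of the V genes with at least 100 rearrangements, so their height is a description with no test. The germline stretch around each of the top 8 follows, from the alignments deposited with the sequences, 5′ to 3′ on the coding strand, with the mutated base in capitals and positions counted from the first base of the V segment.
IGHV1-26, position 176: ggtggtactaGctacaaccag
IGHV5-4, position 167: gatggtggtaGttacacctac
IGHV1-55, position 170: ggtagtggtaGtactaactac
IGHV6-3, position 9: gaagtgaaGcttgaggagt
IGHV2-3, position 92: tcattaaccaGctatggtgta
IGHV1-64, position 197: aagttcaagaGcaaggccaca
IGHV5-4, position 92: actttcagtaGctatgccatg
IGHV5-6, position 92: actttcagtaGctatggcatg

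All 8 were a germline G that opened GCT, GTT, GTA or GCA, the reverse complements of AGC, AAC, TAC and TGC. Position 176 of IGHV1-26 was mutated in 47 of 236 rearrangements (19.9%, exact binomial 95% interval 15.02 to 25.6%), and 13 of the 16 libraries had the mutation. There the new base was A in 22 rearrangements, C in 21 and T in 6, some rearrangements holding more than 1 of them. Position 9 of IGHV6-3, in framework 1, was changed in 21 of 163 (12.9%, 8.16 to 19.02%), and to A in 18 of those. The eighth position, IGHV5-6 position 92 in CDR1, reached 10.2% (6.99 to 14.2%), and the ninth in rank, just outside, 10.17%. These intervals, like all binomial intervals here, cover counting error only. Position 92 was in the top 8 in 3 genes (IGHV2-3, IGHV5-4 and IGHV5-6), always as the middle base of codon 31. Among the top 50 positions, 45 lay in the AID-type motif, 4 in the A or T motif defined below, 1 in neither and 0 in the cold motif. Of those 50, 24 were in CDR1 or CDR2, 25 in framework and 1 in the V part of CDR3. For scale, the AID-type motif held 27.5% of the C or G bases at risk, whereas the ranking took in all 4 bases. Of all bases at risk, its contexts AGC, TGC, TAC and AAC, pooled over both strands, held 4.81%, 4.46%, 2.78% and 1.85%. The A or T motif held 37.7% of the A or T bases, and the cold motif 25.3% of the C or G bases. Shares of the regions among all ranked positions are not given here, so 24 and 25 do not compare the regions. Rates per base at risk by region are given below.

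Several libraries shared rearrangements. Library p 2 of day 13 held 285 rearrangements, of which 172 (60.4%) also occurred in library p 2 of day 7, and 72 sequences were identical between them. Library n 1 of day 7 shared 15 to 33 rearrangements with each day 13 library, and library p 4 of day 7 shared 6 to 31. Over all 64 pairs of a day 7 with a day 13 library the median was 3. At day 7 the n and p libraries of the same number shared 39 to 50 rearrangements, against 0 to 5 for other pairs of that day. At day 13 the same-number pairs shared 5 to 21 and the others 1 to 19. The source of the sharing was not tested, and the main contrasts and rates are given with and without the shared rearrangements.

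**Figure D1:**
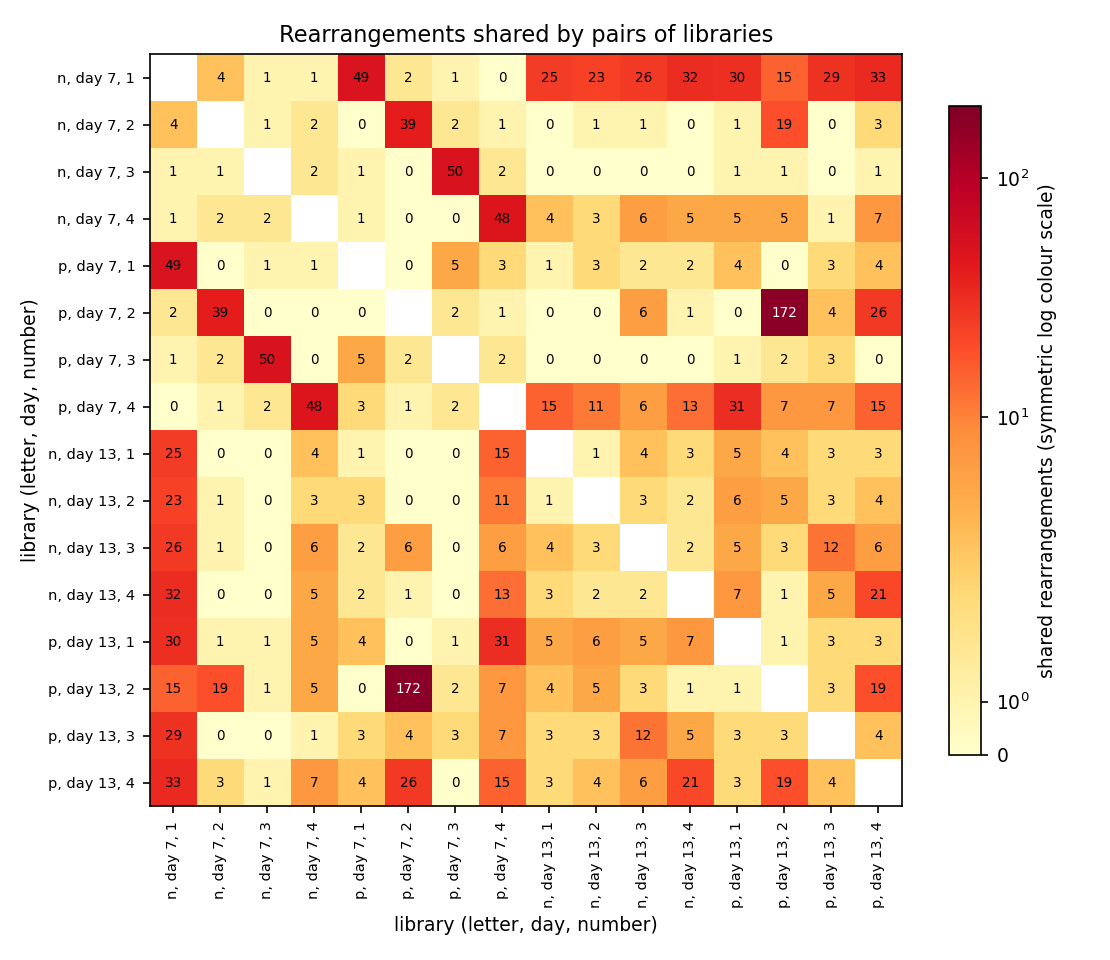
Rearrangements found in both libraries of each pair, with libraries named by letter, day and number on both axes and the number of shared rearrangements in each cell. Libraries p 2 of day 7 and p 2 of day 13 share 172, and same-number n and p libraries of day 7 share 39 to 50.

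Depth was modest. The libraries held 285 to 1000 sequences, 193 to 638 rearrangements and 465 to 999 mutations, and 4570 of the 5822 rearrangements rested on 1 sequence. In 2 libraries of day 13 a single rearrangement made up 31.0% (n 2) and 27.0% (p 2) of the sequences. As a measure of error from copying and reading, the first 15 bases of the constant region, which in genomic DNA lies far from the V segment, held 6 mismatches in 115985 bases of 7894 sequences. That is a mean of 0.0475 ± 0.130 per 1000 bases at C or G and 0.0497 ± 0.108 at A or T (SD, n = 16 libraries). How far a primer reaches into these bases is not stated in the labels, and a primer would hide errors. The sequences used had been read as IgM or IgG1 from 10 matching bases after J. That choice may have left out sequences with mismatches there, so the level may lie below the true error rate. The V segment rates of single libraries, 3.76 to 11.1 mutations per 1000 bases, were above that level. How far they lay above the true error rate was not measured. With every sequence counted, as in the constant region, the V segment rates were 2.42 to 9.61.

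The pooled rate of C or G bases was above the pooled rate of A or T bases in every library. Of the 10624 mutations, 6386 (60.1%) lay at a germline C or G, which made up 50.5% of the bases at risk. Over the 16 libraries the rate was 8.27 ± 2.92 per 1000 bases at C or G and 5.65 ± 2.21 at A or T. The log2 ratio of the 2 rates within a library was 0.57 ± 0.12 (SD, n = 16), a 1.49-fold excess, with a range of 0.38 to 0.74. An exact two-sided sign-flip permutation test over the 16 libraries gave p = 3.05e-05, the smallest it can give, and 3.05e-05 after Benjamini-Hochberg adjustment over 8 such contrasts. Libraries that share rearrangements are not fully independent. With every rearrangement found in more than 1 library left out, the log2 ratio was 0.56 (adjusted p = 3.49e-05 by the same exact test). The other 7 contrasts described below kept their direction there, with adjusted p of 3.49e-05 or 6.10e-05 by exact sign-flip permutation.

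The excess of the pooled C or G rate was carried by transitions. Transitions occurred at 5.31 ± 1.95 per 1000 C or G bases and 2.63 ± 0.98 per 1000 A or T bases (SD, n = 16), a mean log2 ratio of 1.02 ± 0.12 that was positive in 16 of 16 libraries. Transversions occurred at 2.96 ± 1.03 and 3.02 ± 1.25 per 1000, a log2 ratio of 0.013 ± 0.20 that was positive in 10 libraries and negative in 6. In all, 4083 of the 6386 C or G mutations and 1984 of the 4238 A or T mutations were transitions. Per library the transition share was 64.0 ± 3.33% at C or G and 47.1 ± 2.77% at A or T, where equal use of the 3 possible new bases would give 33.3%. The share was higher at C or G in 16 of 16 libraries, by 16.9 ± 4.01 percentage points (range 8.93 to 23.8, adjusted p = 3.05e-05 by exact sign-flip permutation).

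The 4 bases also differed on the coding strand. Germline G was mutated at 9.66 ± 3.38, A at 7.67 ± 2.95, C at 6.68 ± 2.47 and T at 3.33 ± 1.43 per 1000 (SD, n = 16), in 3979, 3080, 2407 and 1158 mutations. A was 2.35-fold above T (log2 1.23 ± 0.24, range 0.79 to 1.83), in 16 of 16 libraries. C was below G in 16 of 16, with a log2 ratio of -0.54 ± 0.15. Both contrasts had an adjusted p of 3.05e-05 by exact sign-flip permutation. An excess of A over T mutations on the coding strand is a textbook feature of hypermutated V genes. With A and T so unequal, the pooled A or T rate lay between 2 bases whose own rates were above and below that of C.

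By single substitution, G to A led at 6.21 ± 2.26 per 1000 G bases and C to T followed at 4.29 ± 1.64 per 1000 C bases (SD, n = 16). A to G came next at 3.56 ± 1.28 and then A to T, a transversion, at 2.52 ± 1.07. G to C (2.22 ± 0.78) and C to G (1.64 ± 0.54) were the more frequent transversions at G and C. The lowest rates were T to A at 1.05 ± 0.49, C to A at 0.756 ± 0.389 and T to G at 0.714 ± 0.367. G to T (1.24 ± 0.49), A to C (1.58 ± 0.71) and T to C (1.56 ± 0.67) lay between. In the order of these means, neighbours such as C to A and T to G differ by less than the SD over libraries. That SD includes the difference between days, and the order within libraries was not tested.

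**Figure D2:**
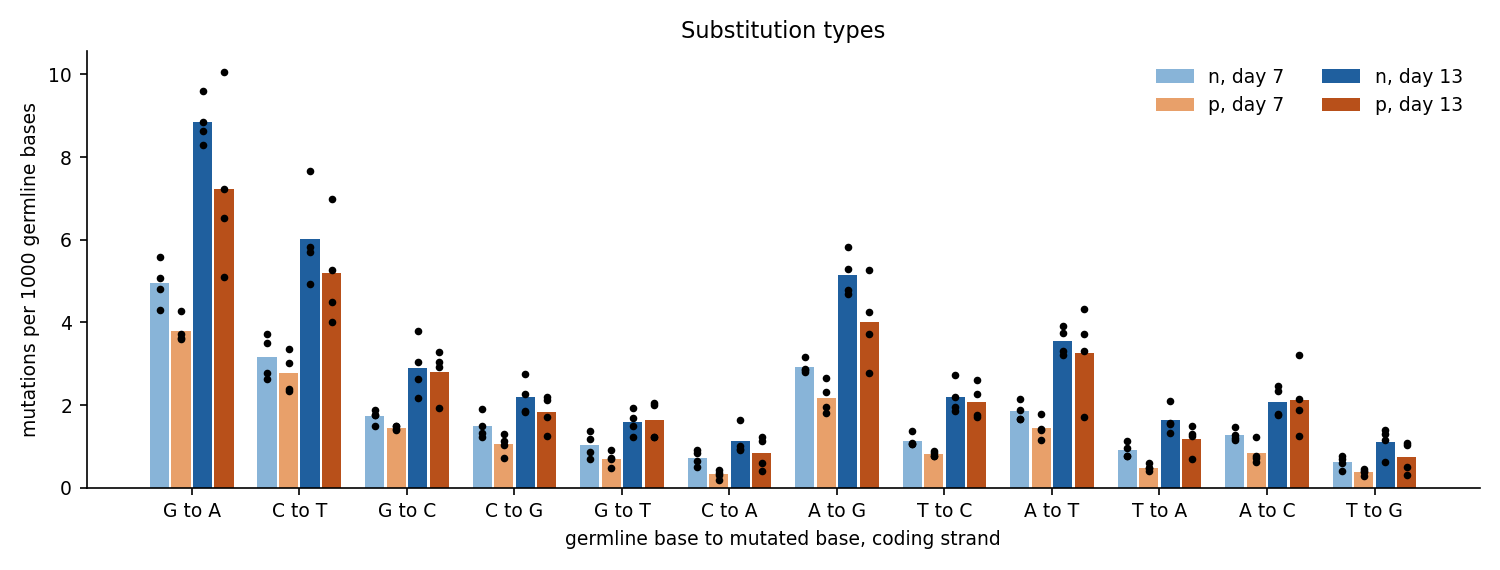
Rate of each of the 12 substitution types per 1000 germline bases of the first-named base, with bars for group means and points for the 4 libraries of each group. G to A and C to T are tallest, and all 12 types have a higher mean at day 13 than at day 7 for both letters.

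Sequence context set the rates apart more than the base itself. The hot motif was C as the last base of AAC, AGC, TAC or TGC, or G as the first base of GTT, GCT, GTA or GCA, which covers both strands. It held 27.5% of the C or G bases and 71.0% of their mutations (4532 of 6385, 1 mutation lacking a full context). Per library the rate was 21.5 ± 7.46 per 1000 inside it and 3.37 ± 1.26 at other C or G bases, a 6.43-fold difference (log2 2.69 ± 0.17, range 2.37 to 3.01). The motif contrast was positive in 16 of 16 libraries (adjusted p = 3.05e-05, exact sign-flip permutation).

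At A and T the motif was A as the second base of AA or TA, or T as the first base of TT or TA. It held 37.7% of the A or T bases and 66.7% of their mutations. The rate was 10.2 ± 4.15 per 1000 inside it and 3.02 ± 1.14 outside, 3.33-fold (log2 1.73 ± 0.23, in 16 of 16 libraries, adjusted p = 3.05e-05, exact sign-flip permutation). C as the last base of CCC, CTC, GCC or GTC, or G as the first base of GGG, GAG, GGC or GAC, is a known cold motif of AID. Here it held 25.3% of the C or G bases and 3.41% of their mutations, at 1.14 ± 0.52 per 1000. That was 0.1002 of the rate at the remaining C or G (log2 -3.32 ± 0.46, below 0 in 16 of 16 libraries, adjusted p = 3.05e-05, exact sign-flip permutation). The hot motif contains no cold motif, so the cold contrast partly repeats the hot one. C or G bases in neither motif were mutated at 4.56 ± 1.73 per 1000.

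Single 3-base contexts, pooled over both strands with the mutated base last, spread from 24.1 ± 8.33 per 1000 for AGC to 0.7996 ± 0.523 for GCC (SD, n = 16). The 4 hot contexts held the first 4 ranks of 32: AGC, AAC (23.6 ± 7.87), TAC (22.5 ± 10.2) and TGC (17.3 ± 5.93). The means of AGC, AAC and TAC differ by less than the SD over libraries, which includes the difference between days. Their order within libraries was not tested. CTA (15.5 ± 7.68) and GTA (14.1 ± 5.90), both with a mutated A after T, came next and lay above every C or G context outside the hot motif. Of these the highest was CAC at 8.28 ± 3.65. The last 4 ranks were the 4 cold contexts CTC, GTC, CCC and GCC.

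**Figure D3:**
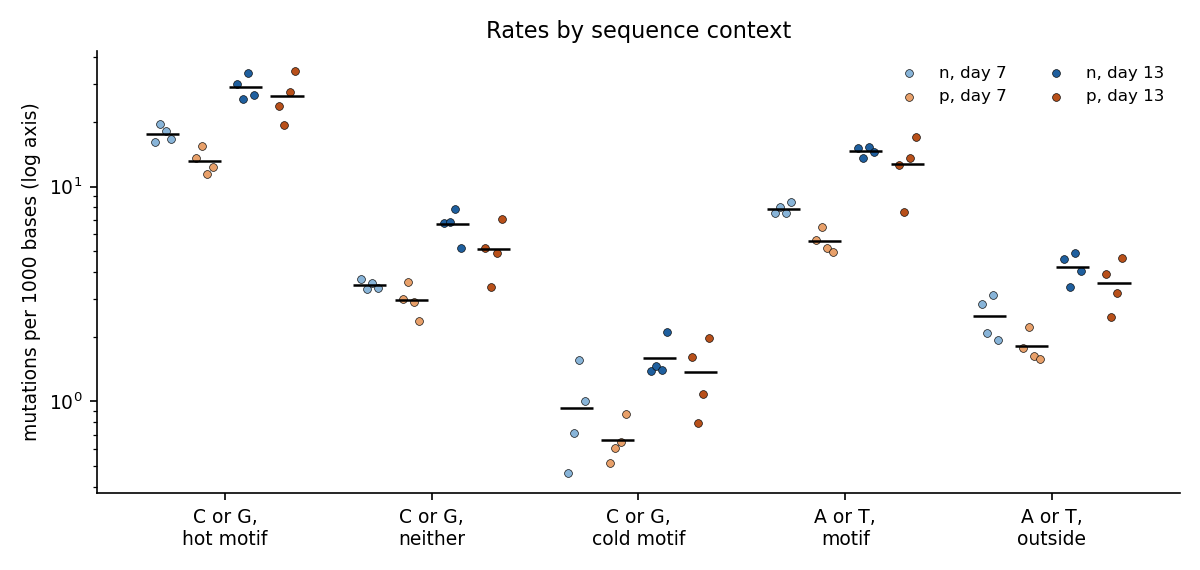
Mutations per 1000 bases (log axis) by sequence context for the 16 libraries, coloured by group, with horizontal lines for the means of 4 libraries. In each group the C or G hot motif is highest and the cold motif lowest, and the hot motif mean over all libraries is 21.5 per 1000.

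CDR1 and CDR2 were mutated more than framework, and more so at C or G. At C or G the rate was 17.9 ± 6.99 per 1000 in CDR1 and CDR2 and 6.60 ± 2.30 in framework, a log2 ratio of 1.42 ± 0.20 (2.68-fold, SD, n = 16). At A or T it was 8.69 ± 3.798 and 4.83 ± 1.87, a log2 ratio of 0.81 ± 0.24 (1.75-fold). Both were positive in 16 of 16 libraries. With rearrangements found in more than 1 library left out they were 1.397 and 0.81. The C or G to A or T log2 ratio was therefore 1.08 ± 0.26 in CDR1 and CDR2 and 0.47 ± 0.15 in framework. The difference of 0.61 ± 0.34 was positive in 16 of 16 libraries, range 0.15 to 1.201 (adjusted p = 3.05e-05, exact sign-flip permutation). Transition shares at A or T were 40.8 ± 4.75% in CDR1 and CDR2 and 49.6 ± 3.15% in framework, and at C or G 62.3 ± 5.82% and 64.8 ± 3.99%, given without a test.

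**Figure D4:**
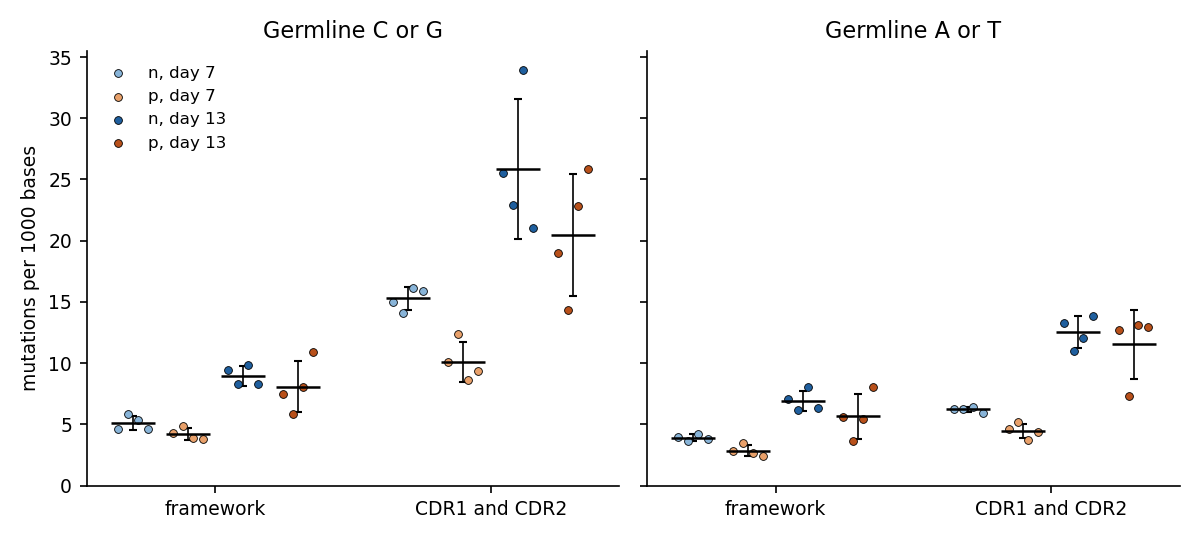
Mutations per 1000 bases in framework and in CDR1 and CDR2, at germline C or G (left) and A or T (right), for each library, with the mean and SD of 4 libraries per group. CDR1 and CDR2 lie above framework for both kinds of base, by 2.68-fold at C or G and 1.75-fold at A or T over all libraries.

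Most of these features were seen in each V gene. In each of the 17 V genes with at least 100 rearrangements, pooled over libraries, C or G was mutated more than A or T, A more than T, and the hot motif more than other C or G. The fold of C or G over A or T ran from 1.14 in IGHV1-76 to 2.20 in IGHV1-72, with a median of 1.504. The transition share was higher at C or G than at A or T in 16 of the 17, the exception being IGHV2-9-1 with 57.7% at C or G and 60.7% at A or T. Libraries and clones are pooled in these values, which carry no test.

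The 6 V genes with most rearrangements are located on chromosome 12 in GRCm38.p6, the assembly of mm10, by the RefSeq annotation, each as an annotated V segment. IGHV8-12 (chr12:115647945-115648245, 366 rearrangements) had 6.03 mutations per 1000 C or G bases and 4.13 per 1000 A or T bases. IGHV1-64 (chr12:115507587-115507977, 296) had 7.98 and 5.76, and IGHV5-6 (chr12:113625508-113625801, 296) had 6.13 and 3.94. These 3 genes had similar folds of 1.38 to 1.56. IGHV1-76 (chr12:115847881-115848174, 261) had 8.93 and 7.84, its A bases being mutated at 11.6 per 1000. IGHV2-3 (chr12:113611184-113611476, 248) had 6.88 and 3.91. IGHV1-26 (chr12:114788372-114788665, 236), which holds the most mutated position shown above, had 10.7 and 8.00, the highest C or G rate of the 6.

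Mutation rates rose from day 7 to day 13 at both kinds of base when both letters were tested together. At C or G, the n libraries 1 to 4 of day 7 had 6.22, 7.05, 6.89 and 6.29 mutations per 1000 bases, and those of day 13 had 11.8, 10.5, 13.3 and 10.3. The p libraries 1 to 4 of day 7 had 5.19, 5.96, 4.62 and 4.68, and those of day 13 had 9.29, 7.05, 10.2 and 13.0. For both letters every day 13 library lay above every day 7 library. Library p 2 of day 13, which shares rearrangements with p 2 of day 7, was the lowest of its day.

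Means at C or G were 6.61 ± 0.42 and 11.5 ± 1.38 in n (1.73-fold) and 5.11 ± 0.62 and 9.88 ± 2.46 in p (1.93-fold, SD, n = 4). At A or T the n libraries of day 7 had 4.55, 4.26, 4.71 and 4.35 and those of day 13 had 8.46, 7.21, 8.69 and 7.88, a 1.80-fold difference of means. The p libraries had 3.18, 3.77, 2.92 and 2.81 at day 7 and 7.07, 4.35, 7.02 and 9.13 at day 13, 2.17-fold. Again no day 13 library overlapped a day 7 library of its letter. With rearrangements found on both days left out, the folds were 1.898 in n and 2.64 in p at C or G and 1.97 and 2.87 at A or T, all without overlap.

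The separation in n depended on how mutations were counted. With every sequence counted, the n libraries of the 2 days overlapped at C or G (1.60-fold, exact permutation p = 0.0571). With only mutations seen in at least 2 sequences, n overlapped at both kinds of base (1.44-fold at C or G, p = 0.343, and 1.57-fold at A or T, p = 0.114, exact permutation). In p the fold there was 2.48 at C or G, with overlap (exact permutation p = 0.114), and 3.42 at A or T, without.

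Exact two-sided permutation tests of 4 against 4 libraries gave p = 0.0286 for the all-base, C or G and A or T rates in n and in p, the smallest p this design allows. After Benjamini-Hochberg adjustment over 24 tests (6 measures, 4 comparisons) each was 0.0762, and at least 14 of the 24 would have to sit at the smallest p to pass 0.05. The groups did not overlap for 3 of 6 measures (50% of those tested) in n and for the same number in p (50%). Tested over both letters together, with day labels permuted within n and within p, the mean difference was 4.81 per 1000 at C or G and 3.66 at A or T. Its exact permutation p was 0.000408, the smallest of 4900 arrangements, and 0.000816 adjusted over 6 measures. This test was added after the data were seen. Of the 12 substitution types, 10 in n and 12 in p passed the adjusted threshold between days with rearrangements found on both days left out. None did with those found in more than 1 library left out. Such counts jump between none and many, since 28 of the 48 tests must sit at the smallest p before any passes.

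The balance between C or G and A or T overlapped between days. The log2 ratio was 0.45, 0.73, 0.55 and 0.53 in n and 0.71, 0.66, 0.66 and 0.74 in p at day 7. At day 13 it was 0.48, 0.55, 0.61 and 0.38 in n and 0.39, 0.70, 0.53 and 0.51 in p. The groups overlapped, and over both letters the difference was -0.11 (exact permutation p = 0.0478, adjusted 0.0716). It was -0.15 with the first 20 bases and the V part of CDR3 left out. It was -0.12 with positions mismatched in over 50% of a V gene's rearrangements left out. Both were past the adjusted threshold of 0.05. Other alternatives gave smaller falls. As reported, the mean ratio fell from 0.565 to 0.504 in n and from 0.691 to 0.534 in p. With rearrangements found in more than 1 library left out, it fell from 0.578 to 0.513 and from 0.615 to 0.515. Averaged over the sequences of a rearrangement, it fell from 0.563 to 0.531 and from 0.647 to 0.552. Transition shares also overlapped: at C or G 62.0 ± 4.23% and 65.8 ± 3.71% in n and 65.0 ± 0.73% and 63.5 ± 3.44% in p, at days 7 and 13. At A or T they were 46.7 ± 1.22% and 46.7 ± 2.78% in n, and 48.9 ± 1.25% and 46.0 ± 4.58% in p (SD, n = 4; adjusted p = 0.386 to 1, exact permutation).

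**Figure D5:**
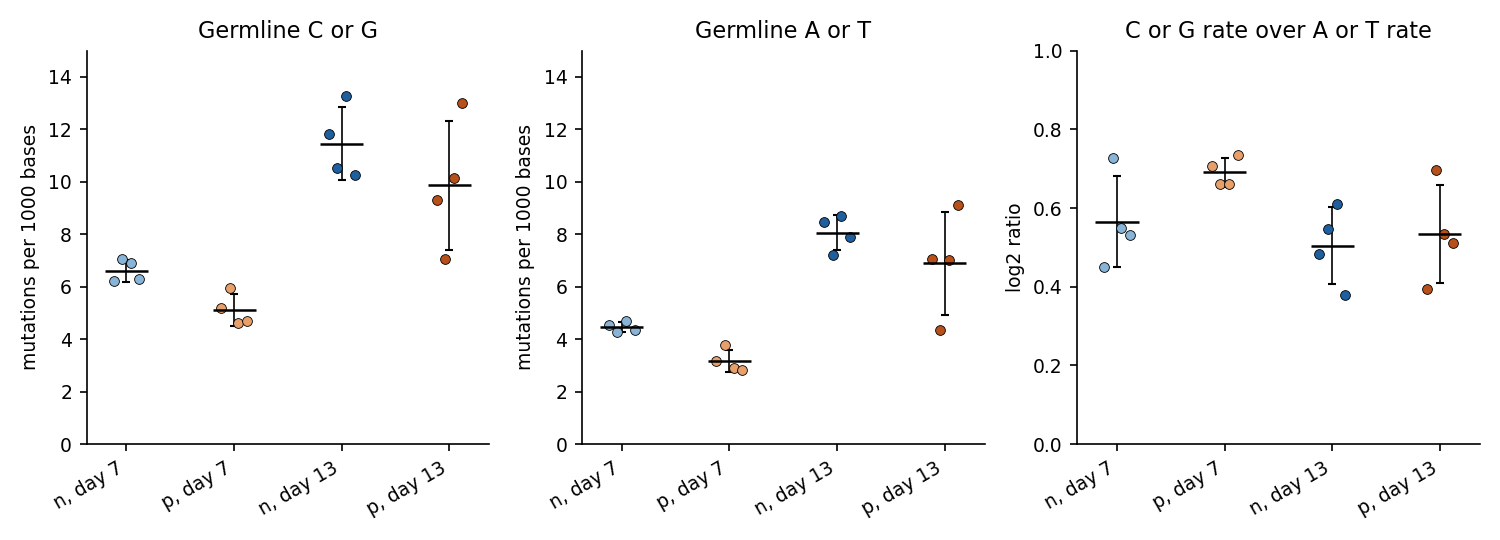
Mutations per 1000 germline bases at C or G (left) and A or T (middle) and the log2 ratio of the 2 rates (right), 1 point per library, with the mean and SD of 4 libraries per group. The p libraries of day 7 lie below the n libraries of day 7 at both kinds of base, and the ratios of all 4 groups lie between 0.38 and 0.74.

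At day 7 the p libraries carried fewer mutations than the n libraries, at both kinds of base, although no test passed the adjusted threshold. The rate over all bases was 5.39, 5.67, 5.81 and 5.33 per 1000 in n and 4.20, 4.87, 3.78 and 3.76 in p, so that the groups did not overlap. Means in p were 0.748 of those in n for all bases, 0.773 at C or G and 0.710 at A or T. Each had an exact permutation p of 0.0286 and an adjusted p of 0.0762, and 3 of 6 measures (50%) did not overlap. The share of rearrangements without any V mutation was 44.4 ± 3.49% in p and 33.4 ± 1.69% in n at day 7 (SD, n = 4), and 33.0 ± 5.15% in p and 33.5 ± 5.80% in n at day 13. The mean share in n was thus nearly equal on the 2 days while its rates differed, and the 4 means carry no test. With rearrangements found on both days left out the shares were 45.4 ± 2.67% in p and 33.2 ± 1.89% in n at day 7, and 27.2 ± 5.04% and 31.8 ± 6.58% at day 13. With rearrangements found on both days left out, the p to n ratio of the all-base rate at day 7 was 0.715, again without overlap.

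At day 13 the groups overlapped. Over all bases the rate was 10.2, 8.87, 10.998 and 9.08 in n and 8.19, 5.71, 8.60 and 11.1 in p, with p at 0.859 of n (exact permutation p = 0.314, adjusted 0.419) and 0 of 6 measures (0%) free of overlap. Library p 2 was the lowest and p 4 the highest of the 8. Without p 2 the ratio of means was 0.951, and without p 4 it was 0.768 with no overlap (exact permutation p = 0.0286). With rearrangements found on both days left out the direction turned, and p stood at 1.01 of n, library p 2 then having 9.94 per 1000 in place of 5.71.

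Over both days, with letters permuted within each day, p was below n by 1.54 per 1000 at C or G and 1.23 at A or T (exact permutation p = 0.0437 and 0.0192, adjusted 0.0873 for both). Counting a mutation by the mean over the sequences of its rearrangement brought these differences to -1.96 and -1.44, past the adjusted threshold. With rearrangements found on both days left out they shrank to -0.779 and -0.636 (adjusted p = 0.592 for both, exact permutation). From day 7 to day 13 the p to n difference changed by -0.0818 per 1000 at C or G and 0.130 at A or T (exact permutation p = 0.979 and 0.953). Day labels were permuted within n and within p, so the rise between days widened the arrangements. The test could therefore hardly detect a change. With rearrangements found on both days left out, the p to n ratio at C or G was 0.730 at day 7 and 1.02 at day 13. At A or T it was 0.692 and 1.01. The C or G to A or T log2 ratio was higher in p than in n by 0.13 at day 7 (exact permutation p = 0.114, adjusted 0.229). At day 13 it was higher by 0.030 (exact permutation p = 0.714, adjusted 0.775). The day 7 means came closer without shared rearrangements. They were 0.646 in p and 0.569 in n with those found on both days left out. With those found in more than 1 library left out they were 0.615 and 0.578.

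By substitution type, all 12 means were lower in p than in n at day 7. For 5 of 12 (41.7%) the libraries did not overlap: A to G, C to A, G to A, T to A and T to C. The lowest folds of the 12 were C to A, at 0.328 ± 0.0999 per 1000 in p and 0.725 ± 0.183 in n (0.453-fold), and T to A (0.541-fold). Both rest on few mutations. C to A had 9, 12, 16 and 7 in the p libraries and 27, 22, 13 and 24 in the n libraries. T to A had 17, 11, 20 and 16 in p and 30, 26, 28 and 20 in n. The all-base ratio was 0.748, and no type was tested against it. G to A, the most frequent type, was at 3.61, 4.29, 3.59 and 3.73 in p and 4.31, 5.08, 5.59 and 4.81 in n. Every p library was below every n library for this type. From day 7 to day 13 the mean of all 12 types was higher, without overlap for 9 of 12 in n (75%) and 8 of 12 in p (66.7%). Between p and n at day 13 the count was 0 of 12 (0%), with 10 lower and 2 higher means in p. None passed the threshold after adjustment over 48 tests (lowest adjusted p 0.0623, exact permutation), which would need 28 tests at the smallest p, and 5, 0, 9 and 8 types had an unadjusted p under 0.05 in the comparisons of p with n at day 7 and day 13 and of days in n and p. The count depended on the counting: for p against n at day 7, 9 types passed the adjusted threshold when mutations were averaged over the sequences of a rearrangement, 8 with rearrangements found on both days left out, and 0 with those found in more than 1 library left out (exact permutation).

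Motif preferences overlapped between the groups as well. The hot motif log2 ratio was 2.76 ± 0.17 in n and 2.61 ± 0.13 in p at day 7, and 2.57 ± 0.14 and 2.80 ± 0.18 at day 13 (SD, n = 4). In all 4 comparisons the libraries overlapped for each of the 3 motif ratios (0%), with adjusted p of 0.514 to 0.971 over 12 exact permutation tests. The rates inside the motif followed the load: 17.6 ± 1.51 in n and 13.2 ± 1.68 in p at day 7, and 29.0 ± 3.71 and 26.3 ± 6.47 per 1000 at day 13.

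IgG1 sequences carried more mutations than IgM sequences in the mean over libraries, though not in p at day 7. A difference in the balance of bases was not detectable. Sequences read as neither isotype were not compared. Isotype was read from the bases after J, giving IgM in 64.2% and IgG1 in 28.5% of sequences. Sequences carry no molecule count, and more cells of an isotype and more RNA per cell cannot be told apart. Over all bases the rate was 8.45 ± 4.23 per 1000 in IgG1 and 5.63 ± 1.54 in IgM (SD, n = 16), higher in IgG1 in 13 of 16 libraries, with a log2 ratio of 0.46 ± 0.43. The exact sign-flip permutation test, added after the data were seen, gave an adjusted p of 0.00453 over 11 measures. With rearrangements found in more than 1 library left out the log2 ratio was 0.52, again higher in 13 of 16 libraries (adjusted p = 0.00554, exact sign-flip permutation). In p at day 7 the means were 3.78 ± 0.64 in IgG1 and 3.93 ± 0.55 in IgM, whereas in n at day 13 they were 12.9 ± 2.89 and 7.31 ± 0.81. The C or G to A or T log2 ratio was 0.59 ± 0.23 in IgG1 and 0.61 ± 0.16 in IgM, a mean difference of -0.017 ± 0.28 (adjusted p = 0.904, exact sign-flip permutation).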

How the data were processed

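Bulk heavy-chain sequences of 16 libraries were analysed. The deposited table gives aligned V and J sequences with their germline counterparts and V identity, a percent of aligned bases that the authors computed. Tools behind it are not stated in the labels or headers, and mm10 is named in the submitters' processing notes. It holds no read or molecule numbers. Groups came from sample titles. The members and the lists of motifs and measures were chosen with earlier results of these data known.

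CDR3 was read from the end of framework 3 to the tryptophan codon of J, located on the germline J. It was in frame in 95.6% of sequences, and the remaining 373 were grouped by the bases between V and J. A rate is distinct mutations per 1000 germline bases at risk, a base counting once per rearrangement. Within-library contrasts were tested by exact sign-flip permutation over 16 libraries and groups by exact permutation of 4 against 4, with Benjamini-Hochberg adjustment and a threshold of 0.05. Counting was tested on mutations simulated in 1 sequence per rearrangement, and the 5 quantities checked were recovered within 10 percent. The merging of several sequences of a rearrangement was not part of that check. V genes named are the 6 with most rearrangements, and positions the 8 with the largest share mutated in V genes of at least 100 rearrangements. Of 102 V genes, 98 matched RefSeq. Alternatives covered counting, CDR3 joining, trimming, framing, motif length, shared rearrangements, same-number pairs and leaving out each library. Single-cell files were not used here. Python 3.11.15, numpy 2.4.6, pandas 2.3.3, scipy 1.17.1 and matplotlib 3.10.9 were used.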

Additional observations from a re-analysis of the deposited data

Results flagged for a closer look

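Among 100 sets of 4 libraries examined (a measure in a group), 4 values stood far from the other 3, where chance alone gives about 1 in 20 sets. The transition share at A or T was 52.8% in library p 2 of day 13 and 43.5 to 44.1% in the other 3 of its group. This library shares 172 rearrangements with p 2 of day 7, and it was at 55.6% with rearrangements found on both days left out. C to A reached 1.63 per 1000 in library n 3 of day 13, against 0.920 to 1.02 in the others. T to C was 1.37 per 1000 in library n 3 of day 7, against 1.05 to 1.08. The A or T motif log2 ratio was 1.54 in library p 2 of day 7, against 1.66 to 1.68.

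The p to n difference in the hot motif log2 ratio differed between days by 0.385, being 2.61 against 2.76 at day 7 and 2.80 against 2.57 at day 13. The exact permutation test of this difference, added after the data were seen, gave p = 0.0245, or 0.0735 adjusted over 3 motif ratios. With rearrangements found in more than 1 library left out, the difference between days was 0.295 (adjusted p = 0.48, exact permutation), and p minus n at day 7 turned to 0.0274.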

How the results depend on the processing

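All 8 within-library contrasts kept their direction and their side of the threshold under every alternative that could be run. The C or G to A or T log2 ratio ranged from 0.53 to 0.59 over alternatives other than leaving out a library. Over these contrasts, the group comparisons and the counts of called substitution types, there were 654 values under alternatives other than leaving out a library: 590 kept direction and side of the threshold, 51 changed sign, 6 passed the threshold newly, 1 lost it and 6 counts moved by over 1.5 times. The causes were not tested.

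The replicate block, which pairs n and p libraries of the same number, left the C or G to A or T log2 ratio at 0.57 (p = 0.0078, exact sign-flip over 8 pairs) and the p to n difference over both days at -1.39 (adjusted p = 0.156), and it changed no call. Deviations of same-number libraries correlated above 0.1 in 4 of 8 pairs (range -0.150 to 0.506), and 5 of 16 libraries correlated best with their own number, so these deviations do not pair the libraries, although at day 7 same-number n and p libraries shared 39 to 50 rearrangements. In the 4 pairs of day 7, p was below n in all 4 at both kinds of base, with a mean difference of -1.40 per 1000 over all bases (exact sign-flip permutation p = 0.125, the smallest 4 pairs allow).

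Counting every sequence gave p minus n at day 7 of -0.155 points in A or T transition share and 0.383 in the cold motif log2 ratio. At day 13 it gave -0.00144 for the base log2 ratio and 0.141 for the A or T transition share, and over both days -0.254 and -0.00666 points for C or G and A or T transitions. The between-day change of the p to n difference was 1.14 at C or G, 0.296 points for A or T transitions and 0.420 for the hot motif (now past the threshold), and the cold motif change between days in p was -0.305.

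Averaging over the sequences of a rearrangement gave p minus n over both days of -1.70 for all bases, -1.96 at C or G and -1.44 at A or T. Adjusted calls were then 9 substitution types for p against n at day 7, 8 for days in n and 11 for days in p, against 0 in each as reported. The between-day change was 0.320 at C or G and 0.0466 for the cold motif. At C or G that change was 0.158 with CDR3s joined at up to 2 mismatches, 0.00515 in frame only and 0.00652 with positions mismatched in over 50% of a V gene's rearrangements left out.

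In frame only, the change between days was 0.0105 points for A or T transitions in n and -0.0197 for the cold motif in p. Over both letters the day difference of the base log2 ratio was -0.125 without the widely mismatched positions and -0.155 without the first 20 bases and V part of CDR3. That trimming gave p minus n at day 13 of -0.015 for the base ratio, -0.0815 for the A or T motif and 0.165 for the cold motif, whose between-day change was 0.206.

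Keeping 1114 mutations seen in at least 2 sequences gave, for p minus n, -3.88 and -8.30 points in C or G and A or T transitions at day 7. At day 13 it gave 0.0557 for all bases, 0.465 at A or T, -0.276 for the base ratio, 6.05 points for A or T transitions and -0.302 for the A or T motif. Over both days it gave -0.117 for the base ratio and -2.05 and -1.12 points for the 2 transition shares. Between-day changes were 1.51 at C or G, 3.67 and 14.4 points for C or G and A or T transitions and -0.0464 for the A or T motif. Day differences were -6.67 points for C or G transitions in n, 2.09 for A or T in p, -4.84 for C or G over both letters, and 2.53 for the C or G rate, no longer past the threshold. The cold motif gave no value there for groups, since some libraries had 0 such mutations.

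Leaving out rearrangements in more than 1 library gave p minus n at day 13 of 0.161 for all bases, 0.184 at C or G, 0.129 at A or T and 0.1001 for the cold motif, 0.0274 and 0.0393 for hot and cold motifs at day 7, and between-day changes of 2.03 at C or G and 0.0608 for the cold motif. Leaving out those on both days gave 0.157, 0.214, 0.0889 and 0.0986 at day 13, 0.130 for the cold motif at day 7, a change of 1.99 at C or G, and 8, 10 and 12 called substitution types for p against n at day 7 and days in n and p. Both were chosen after seeing the data. Leaving out sequences with over 20 mismatches removed 0, since the most was 18.

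Without each library in turn, p minus n over both days ranged from -1.84 to -0.939 for all bases, -2.07 to -1.07 at C or G and -1.61 to -0.809 at A or T, past the threshold without p 4 of day 13 (adjusted p = 0.00163, exact permutation). Over both days it was -0.532 to 1.18 points for C or G and -0.396 to 1.38 for A or T transitions. At day 7 it was -0.193 to 0.0918 for the A or T motif and -0.283 to 0.267 for the cold motif. At day 13 it was -0.0247 to 0.0761 for the base ratio, -3.01 to 0.547 points for A or T transitions, -0.0712 to 0.0909 for the A or T motif and -0.181 to 0.156 for the cold motif. The between-day change was -0.871 to 0.922 for all bases, -1.13 to 0.860 at C or G, -0.616 to 0.977 at A or T, 0.302 to 0.453, -0.0718 to 0.213 and -0.315 to 0.235 for hot, A or T and cold motifs. Past the threshold, the hot motif change was 0.453 without p 1 of day 13. The day difference of the base ratio was -0.136 to -0.0818 over both letters, past it without n 1 of day 7, n 3 of day 13 or p 2 of day 13. In n it was -1.29 to 0.899 points for A or T transitions, -0.0293 to 0.255 for the A or T motif and -0.167 to 0.382 for the cold motif. In p it was -2.46 to 0.137 points for C or G transitions and -0.0649 to 0.257 for the cold motif.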

Other observations

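Framework 4, the part of J after its tryptophan codon, was mutated less than V. Its mean balance of bases was opposite to that of V, though not in every library. Its 127 mutations in 122311 C or G bases gave 1.12 ± 0.42 per 1000, and 145 in 74336 A or T bases gave 2.02 ± 0.91 (SD, n = 16 libraries). The log2 ratio was -0.79 ± 1.15, with a range of -3.04 to 2.45, and no test was run.

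Split by load, the C or G excess was 1.75-fold in the 2085 rearrangements with 1 to 2 mutations, 1.41-fold in the 1147 with 3 to 5 and 1.35-fold in the 424 with 6 or more, pooled over libraries and without a test. A further 2166 rearrangements had 0 mutations in V.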
